A study of Sus scrofa with 29 samples.

Results

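The brachial artery, which supplies the forelimb, was compared with the internal mammary artery, which supplies the chest wall, within each of 7 exercise-trained pigs. The pairs were chosen by the artery, the training label and the pig identifier in the sample titles, and 14 of the 29 arrays of the study belong to them. An eighth trained pig had an internal mammary array only and was left out. All 23999 probe sets that are not array controls were tested.

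The study measured RNA from the luminal surface of both arteries in exercised and sedentary swine, one oligonucleotide array per artery and pig. The exercised pigs ran on a treadmill for 16 to 20 weeks, reached the full load of 85 min a bout on 5 days a week by week 10, and were killed about 24 h after the last bout, while the sedentary pigs stayed in their enclosures. Both groups were described as healthy animals, without any drug, diet or genetic change in the labels. Each sample was scraped from the opened vessel into a lysis reagent and is called endothelial enriched in the labels, so cells below the endothelium may be present.

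The endothelium is the single cell layer that faces the blood. It makes nitric oxide and prostacyclin, which relax the smooth muscle beneath it. It responds to the drag of flowing blood in part through transcription factors such as KLF2 and KLF4. Endothelial cells of different vascular beds keep different expression programmes, part of them set by the position of the vessel in the body. The internal mammary artery is known clinically as a conduit that rarely develops atherosclerosis.

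The deposited values are log2 intensities, so a difference of 1.00 between arteries is 2-fold. Differences are given throughout as brachial minus internal mammary, as the mean over 7 pigs with its standard error (SE). A gene is said to be higher or lower only where the paired limma fit gave a Benjamini-Hochberg adjusted p under 0.05. A level of one gene is not compared with that of another, since probe sets differ in brightness.

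The scraped samples carried endothelial RNA in both arteries. PECAM1, a junction protein of endothelial cells, ran from 13.73 to 14.09 (median 14.02) in brachial and from 13.98 to 14.11 (median 14.03) in internal mammary arrays. CDH5, the endothelial cadherin, ran from 11.87 to 12.63 (median 12.27) and from 12.11 to 12.43 (median 12.31). The arteries overlapped for both genes, with differences of -0.08 (adjusted p = 0.376) and -0.02 (adjusted p = 0.916). A second, dimmer probe set of each gene was lower in brachial arrays, by -0.37 for PECAM1 (adjusted p = 0.00961) and -0.69 for CDH5 (adjusted p = 0.00835).

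The control probe sets of the arrays also separated the arteries, and this bears on every result that follows. The bacterial hybridization controls bioB, bioC and bioD, which are added to each sample and do not come from the pig, averaged 10.8 ± 0.226 (SD, n = 7) on brachial and 10.0 ± 0.132 on internal mammary arrays, and the arrays of the arteries did not overlap. All 21 of their probe sets were higher in brachial arrays in 7 of 7 pigs (mean difference 0.745, two-sided exact sign-flip p = 0.0156, the smallest that 7 pairs allow; 0.0212 after adjustment over 19 such values). A probe set for 28S ribosomal RNA was lower in brachial arrays by -4.44, and one for 18S by -3.73, while another for 18S was higher by 1.36, each in 7 of 7 pigs. The gap between 3' and 5' actin controls, which grows as RNA is shorter or copied less far, was 2.19 ± 0.210 in brachial and 1.24 ± 0.101 in internal mammary arrays, again with no overlap. For EF1a it was 0.410 and 0.101, and for GAPDH it went the other way, at 0.369 and 0.589 (exact sign-flip p = 0.0625).

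**Figure D1:**
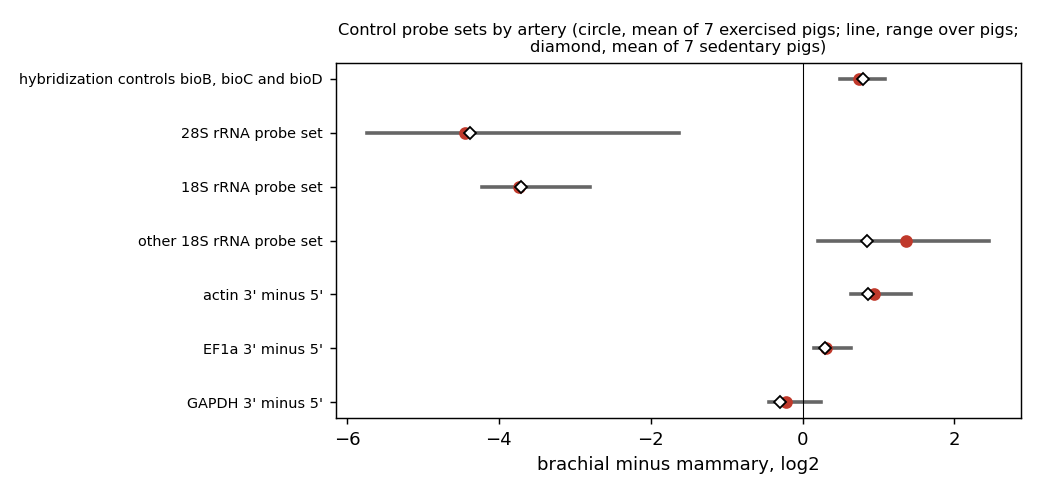
Brachial minus internal mammary difference (log2, horizontal axis) of control probe sets. Circles are means of 7 exercised pigs, grey lines the range over those pigs and diamonds means of 7 sedentary pigs; the hybridization controls lay above 0 and the 28S probe set below 0 in every pig, with means of 0.745 and -4.44 in exercised and 0.800 and -4.38 in sedentary pigs.

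The 28S/18S ratio in the labels averaged 1.41 ± 0.166 in brachial and 1.32 ± 0.0821 in internal mammary samples and did not pass (exact sign-flip p = 0.203). Since every brachial array differed from its internal mammary partner in these controls, artery and sample or array handling cannot be told apart. When the within-pig difference of the actin controls entered the fit as a covariate, 0 probe sets were called (2883 at an unadjusted p under 0.05), and with the hybridization controls 6 were called. Both fits, added after the data were seen, estimate the artery difference at equal control values, which no pig had.

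In exercised pigs 9101 of 23999 probe sets (37.9%) differed between the arteries, 5135 of them higher and 3966 lower in brachial arrays. By gene, with each gene read from its brightest probe set, 2420 of 6765 (35.8%) differed, with 1453 higher (21.5%) and 967 lower (14.3%). Most differences were small: the median size among called genes was 0.332, and 138 genes (2.04%) were called and differed by more than 2-fold, 56 higher and 82 lower. The 7 brachial and 7 internal mammary arrays did not overlap for 626 genes (9.25%). The median difference of all genes was 0.031. Each gene list below is set against that median and against the 35.8% of all genes called.

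Direction depended on brightness and on centring. Among the 8000 dimmest probe sets 26.6% were higher and 6.84% lower in brachial arrays, while among the 8000 brightest 14.0% were higher and 20.7% lower. The array medians were lower in brachial arrays by -0.0595, in 7 of 7 pigs, and centring each array on its median gave 10117 calls of which 70.3% were higher, against 56.4% in the values as deposited.

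The genes with the greatest rise in brachial arrays were of mixed function. DPT, which encodes dermatopontin, a matrix protein made by fibroblasts, ran from 8.50 to 11.12 (median 9.88) in brachial and from 5.93 to 8.16 (median 7.23) in internal mammary arrays. The arteries did not overlap, and DPT was 6.04-fold higher in brachial arrays (log2 difference 2.59, SE 0.25, limma adjusted p = 1.31e-04). MSMB, a small secreted protein first known from seminal fluid, ran from 12.23 to 13.90 (median 12.95) against 9.51 to 12.21 (median 10.59). Its arteries too were apart, if narrowly, with a 4.74-fold difference (2.24, SE 0.11, adjusted p = 1.06e-05). ATP10A, a phospholipid-moving ATPase, ran from 9.43 to 10.18 (median 9.93) against 7.26 to 8.70 (median 7.65), with no overlap and a difference of 2.00 (SE 0.15, adjusted p = 4.12e-05).

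EDF1, a transcriptional coactivator named for endothelial differentiation, ran from 9.01 to 9.70 (median 9.35) in brachial and from 7.24 to 7.54 (median 7.33) in internal mammary arrays. VPS72, a subunit of complexes that place a histone variant, ran from 8.94 to 9.30 (median 9.11) against 7.44 to 7.68 (median 7.56). Both genes varied little between pigs within an artery, so that the differences of 2.00 (SE 0.11) and 1.56 (SE 0.06) were many times their errors (adjusted p = 1.35e-05 and 2.25e-06). TPPP3, a tubulin-binding protein found in tendon and vessel sheath cells, ran from 8.44 to 10.08 (median 9.54) against 7.12 to 7.79 (median 7.58), a difference of 1.97 (SE 0.20, adjusted p = 1.91e-04) with no overlap.

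RARRES1, a gene first found as induced by retinoids, ran from 5.92 to 9.55 (median 7.96) in brachial and from 4.45 to 7.30 (median 5.93) in internal mammary arrays. The arteries overlapped, but brachial was higher in 7 of 7 pigs (1.95, SE 0.32, adjusted p = 0.00186). IGFBP5, a binding protein of insulin-like growth factors, ran from 10.65 to 12.36 (median 12.03) against 9.24 to 10.73 (median 10.22), overlapping slightly, with a difference of 1.59 (SE 0.19, adjusted p = 3.81e-04). The other leading rises were DES, TNC and MFAP2, described with the vessel wall below, and LOC100153598, which has no name in the reference. LOC100153598 was higher in 5 of 7 pigs (1.62, adjusted p = 0.0330) and did not pass without pig 10_1, 10_5, 11_3 or 15_4 (1.35 to 1.47, adjusted p = 0.0772 to 0.0869), and its other probe set was lower in brachial arrays (-0.29).

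The leading falls reached further than the leading rises. LOC100154873, a protein-coding gene without a name in the reference, ran from 5.66 to 8.12 (median 5.99) in brachial and from 9.53 to 11.46 (median 10.75) in internal mammary arrays, and was 18.6-fold lower in brachial arrays (-4.22, SE 0.25, adjusted p = 1.80e-05). LOX, the enzyme that crosslinks collagen and elastin, ran from 9.37 to 10.26 (median 9.58) against 11.51 to 12.03 (median 11.78). The 4.21-fold lower LOX value (-2.07, SE 0.12, adjusted p = 1.80e-05) stood beside a second, dim LOX probe set that was higher (0.26, adjusted p = 0.0131). Neither of these genes overlapped between the arteries.

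MAN1A1, a mannosidase that trims N-linked sugars in the Golgi, ran from 8.31 to 9.37 (median 8.91) in brachial and from 10.53 to 11.44 (median 11.19) in internal mammary arrays (-2.19, SE 0.20, adjusted p = 9.65e-05). ARHGAP29 ran from 6.91 to 8.09 (median 7.95) against 9.39 to 10.01 (median 9.76), a difference of -1.97 (SE 0.16, adjusted p = 6.81e-05). SHAS2, listed in the reference under the synonym Has2 and making hyaluronan, a sugar polymer of the endothelial surface layer and the matrix, ran from 7.02 to 8.16 (median 7.42) against 8.84 to 10.32 (median 9.17). None of the 3 genes overlapped, and SHAS2 was 3.44-fold lower in brachial arrays (-1.78, SE 0.13, adjusted p = 4.30e-05). The zinc finger gene ZNF12 (-2.24), FAM114A1 (-1.79) and the ankyrin repeat gene ANKRD50 (-1.78) were lower in 7 of 7 pigs with no overlap as well.

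**Figure D2:**
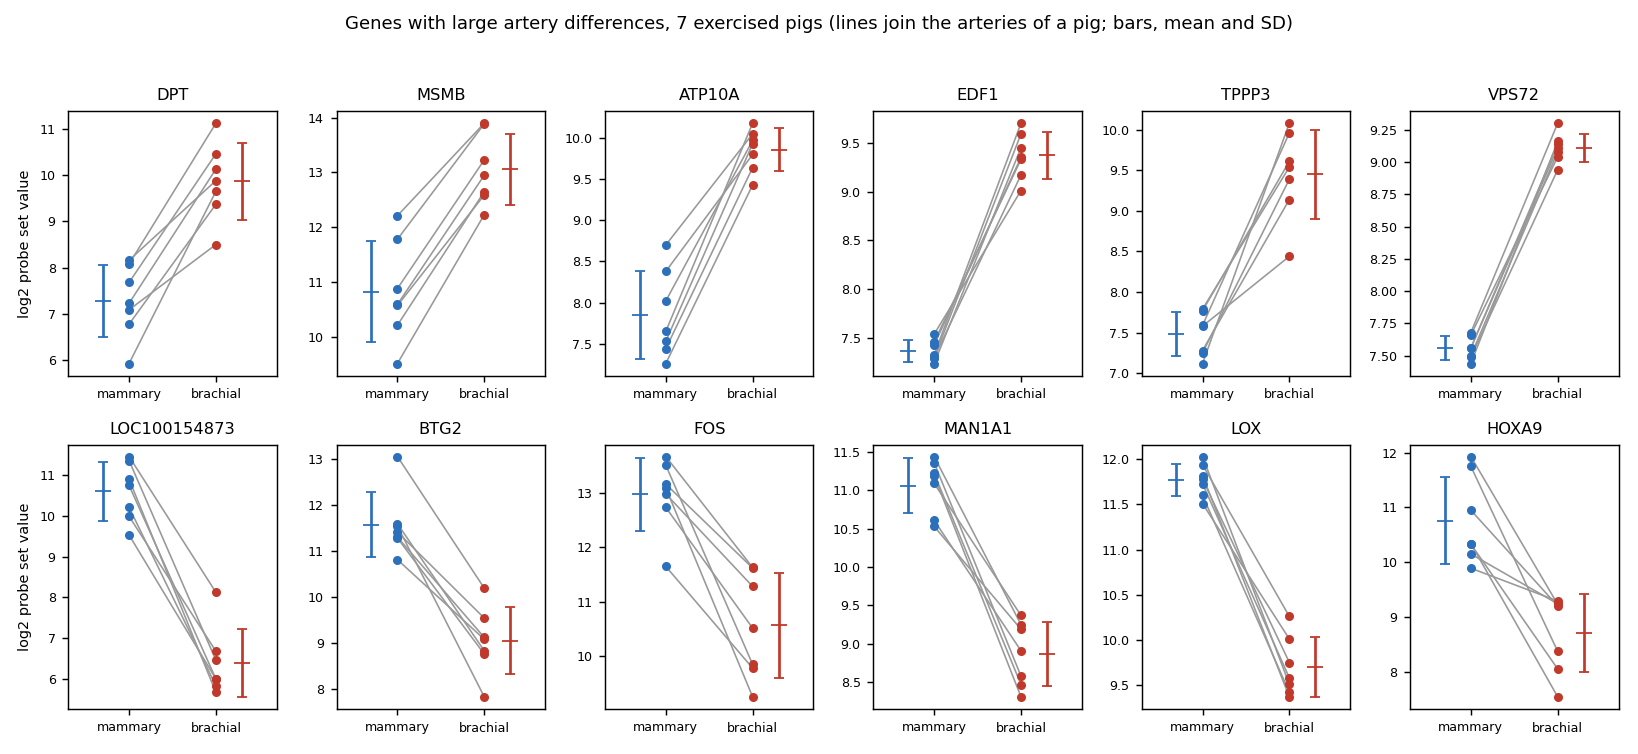
Log2 probe set values (vertical axes, scaled per gene) of 12 genes with large differences in the internal mammary (blue) and brachial (red) arteries of 7 exercised pigs. Grey lines join the arteries of a pig and side bars give mean and SD; every line rises in the upper row and falls in the lower row, from 2.59 for DPT to -4.22 for LOC100154873.

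Immediate early genes, which are switched on within minutes of a stimulus and encode short-lived transcription factors and their brakes, were mostly lower in brachial arrays. Of 16 measured, 9 were lower, 1 was higher and 6 did not pass (62.5% called). Their median difference was -0.65 against 0.031 for all genes. FOS, a subunit of the AP-1 factor, ran from 9.24 to 11.63 (median 10.51) in brachial and from 11.65 to 13.68 (median 13.10) in internal mammary arrays. The ranges of FOS came close without overlapping, and its fall was 5.37-fold (-2.42, SE 0.29, adjusted p = 4.49e-04).

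BTG2, an antiproliferative gene induced by p53 and by stress, is not among the 16 and is named for the size of its fall. It ran from 7.84 to 10.20 (median 9.09) against 10.82 to 13.06 (median 11.42), with a difference of -2.52 (SE 0.21, adjusted p = 6.93e-05). EGR1, a zinc finger factor induced by injury and shear, ran from 9.08 to 10.45 (median 9.72) against 10.64 to 12.24 (median 10.91), a difference of -1.40 (SE 0.18, adjusted p = 5.50e-04), and both its other probe sets were lower too (-1.91 and -0.95). JUN, the partner of FOS, ran from 11.20 to 12.17 (median 11.77) against 12.45 to 13.02 (median 12.83), a difference of -1.06 (SE 0.13, adjusted p = 4.64e-04). BTG2, EGR1 and JUN did not overlap between the arteries.

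IER2 (-0.94), the survival gene IER3 (-0.62) and the orphan receptor NR4A2 (-1.23) were lower in 7 of 7 pigs, with overlap. NR4A2 passed only with the pig as a block (adjusted p = 5.93e-04, against 0.0860 without it). Pig 10_1 had the highest internal mammary value for BTG2, EGR1, FOS (13.68), IER2 (12.00), IER3 (10.33) and NR4A2 (10.51), but not for JUN (12.45, the lowest of its group). Without that pig all 7 remained called.

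The endothelial marker list gave no common direction: of 20 measured genes 2 were higher, 4 were lower and 14 did not pass (30.0% called, median -0.01). ENG, the endoglin coreceptor of TGF-beta, ran from 9.62 to 10.08 (median 9.74) in brachial and from 8.72 to 9.04 (median 8.91) in internal mammary arrays. The arteries were well apart, and ENG was 1.86-fold higher in brachial arrays (0.90, SE 0.07, adjusted p = 6.36e-05). EGFL7, a protein that endothelial cells secrete into their matrix, was higher by 0.75 (SE 0.10, adjusted p = 6.85e-04), with 10.97 to 11.58 against 10.32 to 10.99, overlapping by a narrow margin.

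CALCRL, the receptor subunit that binds adrenomedullin and calcitonin gene-related peptide, ran from 4.83 to 5.90 (median 5.53) in brachial and from 6.41 to 6.97 (median 6.52) in internal mammary arrays. It was 2.06-fold lower in brachial arrays, without overlap (-1.04, SE 0.13, adjusted p = 5.47e-04). THBD, the thrombomodulin that turns thrombin to an anticoagulant, was lower by -0.50 (SE 0.14, adjusted p = 0.0187), but did not pass with the 28S/18S difference as a covariate (-0.46, adjusted p = 0.0865) or in the 4 pigs with the latest dates in the labels, fitted alone (-0.27, adjusted p = 0.211). The other falls were those of the endothelial transcription factor ERG and the angiopoietin receptor TEK, each -0.37. ERG did not pass without pig 10_5 (-0.33, adjusted p = 0.0517), nor TEK without pig 11_3 (-0.32, adjusted p = 0.0536), while another TEK probe set was lower by -1.30 (adjusted p = 5.29e-05). VWF, the clotting protein stored in endothelial granules, ran from 6.58 to 8.47 (median 7.23) against 6.05 to 7.52 (median 6.77), with a difference of 0.28 that passed only when pig 15_4 was left out (0.48, adjusted p = 0.0359). Of 2 other, dimmer VWF probe sets 1 was higher (0.52, adjusted p = 2.75e-04) and 1 did not pass (-0.16, adjusted p = 0.102).

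Genes of vessel tone moved in both directions. In the nitric oxide and prostacyclin list 4 of 18 genes were higher, 3 were lower and 11 did not pass (median -0.11). The called share of 38.9% was near the 35.8% of all genes, so the count does not set this list apart. NOS3, the endothelial nitric oxide synthase, ran from 12.00 to 12.45 (median 12.38) in brachial and from 12.29 to 12.67 (median 12.48) in internal mammary arrays, a difference of -0.17 (SE 0.07, adjusted p = 0.106). NOS3 overlapped between the arteries.

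PDE3A, a phosphodiesterase that breaks down cyclic AMP in smooth muscle and platelets, ran from 7.80 to 9.08 (median 8.49) in brachial and from 10.22 to 10.78 (median 10.42) in internal mammary arrays. It was 3.90-fold lower without overlap (-1.96, SE 0.14, adjusted p = 3.72e-05), while a second, dim PDE3A probe set was higher (0.41, adjusted p = 0.00568). PTGS2, the inducible cyclooxygenase, ran from 6.36 to 7.41 (median 6.94) against 7.69 to 10.33 (median 8.12), a difference of -1.44 (SE 0.37, adjusted p = 0.0148). PTGS2 did not overlap, but with the 28S/18S difference as a covariate its adjusted p was 0.0616. DDAH1, which degrades an inhibitor of nitric oxide synthase, was higher by 0.56 (SE 0.12, adjusted p = 0.00566) in 7 of 7 pigs, a call that was lost without the pig as a block (adjusted p = 0.170).

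Among endothelin and renin-angiotensin genes 3 of 8 were higher, 1 was lower and 4 did not pass (median 0.14). ACE, the enzyme that makes angiotensin II, ran from 8.93 to 9.25 (median 9.04) in brachial and from 8.20 to 8.63 (median 8.40) in internal mammary arrays, a 1.60-fold rise without overlap (0.67, SE 0.07, adjusted p = 1.55e-04). AGT, the precursor angiotensinogen, ran from 5.03 to 5.47 (median 5.36) against 4.17 to 4.97 (median 4.73), close to the dim end of the array, with no overlap and a difference of 0.66 (SE 0.11, adjusted p = 0.00176). AGTR1, the receptor of angiotensin II on smooth muscle, was higher by 1.49 in 6 of 7 pigs (adjusted p = 0.0374), but not with the 28S/18S difference as a covariate (1.33, adjusted p = 0.149).

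The AGTR1 call did not hold when pig 10_1, 10_5, 11_3, 12_5, 15_2 or 15_4 was left out (1.16 to 1.63, adjusted p = 0.0524 to 0.0957). ECE1, which cuts endothelin from its precursor, ran from 5.39 to 6.80 (median 6.15) against 6.69 to 7.36 (median 7.22), a difference of -0.87 (SE 0.12, adjusted p = 6.69e-04), and a second ECE1 probe set was higher (0.45, adjusted p = 0.00504). EDN1, endothelin itself, ran from 11.05 to 12.72 (median 12.03) against 11.55 to 12.46 (median 11.89), with 0.09 between the means (adjusted p = 0.771).

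The peptide list had 5 of 11 genes higher and 2 lower (63.6% called, median 0.17). NPR2, the receptor of C-type natriuretic peptide, ran from 10.22 to 10.70 (median 10.40) against 9.66 to 10.14 (median 9.94), without overlap (0.49, SE 0.06, adjusted p = 5.35e-04), though a second NPR2 probe set was lower (-0.49, adjusted p = 6.87e-04). RAMP3, an accessory protein of CALCRL, was higher by 0.78 (adjusted p = 0.00244), and ADM, the adrenomedullin that both bind, was lower by -0.71 in 6 of 7 pigs (adjusted p = 0.00907). The receptor subunit CALCRL and the ligand ADM were thus lower and the accessory protein RAMP3 higher. In the first 3 pigs alone RAMP3 (0.75, adjusted p = 0.0647) and ADM (-0.65, adjusted p = 0.114) did not pass.

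The list of shear-responsive and KLF genes had 2 of 10 higher, 3 lower and 5 not passing (median -0.16). KLF2, a factor induced by steady laminar flow, ran from 7.07 to 8.41 (median 7.53) in brachial and from 6.68 to 7.07 (median 6.86) in internal mammary arrays, touching at the second decimal with a difference of 0.69 (SE 0.15, adjusted p = 0.00612). KLF4, a factor with overlapping targets, ran from 11.48 to 12.23 (median 12.01) against 12.17 to 12.65 (median 12.38), a difference of -0.50 (SE 0.10, adjusted p = 0.00491). HMOX1, the inducible heme oxygenase, was lower by -0.28 without overlap (adjusted p = 0.00664). KLF2 and KLF4, often named together, were on opposite sides in this fit. In the last 4 pigs alone KLF4 did not pass (-0.33, adjusted p = 0.0643).

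The matrix lists had more genes higher than lower, as did all genes together (21.5% against 14.3%, with 35.8% called), and their called shares lay on both sides of that background. Of 11 collagens 6 were higher, none lower and 5 did not pass (54.5% called, median 0.64). Of 18 elastic fibre genes and matrix glycoproteins 5 were higher and 1, LOX, lower (33.3% called, median 0.06). Of 11 proteoglycans 2 were higher and 1 lower (27.3% called, median 0.24), and of 12 basement membrane laminins and integrins 4 were higher and none lower (33.3% called, median 0.04). COL8A1, a short-chain collagen of endothelium and intima, ran from 12.59 to 12.91 (median 12.71) in brachial and from 11.67 to 11.95 (median 11.75) in internal mammary arrays. The narrow ranges did not overlap, and COL8A1 was 1.88-fold higher (0.91, SE 0.06, adjusted p = 2.36e-05). Of its 3 other probe sets 2 were higher (0.30 and 1.46) and 1 lower (-0.27).

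COL5A2, a fibril-nucleating collagen, ran from 6.56 to 6.98 (median 6.74) against 6.02 to 6.20 (median 6.17) and was higher without overlap (0.64, SE 0.06, adjusted p = 9.84e-05), although its other probe set lay at -0.04 (adjusted p = 0.711). COL5A3 was higher by 0.99 (SE 0.18, adjusted p = 0.00343). The beaded-filament collagens COL6A2 (1.34, adjusted p = 0.0197) and COL6A3 (1.32, adjusted p = 0.0352) were each higher in 6 of 7 pigs. COL6A2 did not pass without pig 10_1, 10_5 or 11_3 (1.20 to 1.25, adjusted p = 0.0524 to 0.0536), nor COL6A3 without any 1 of 6 pigs, 14_3 being the exception (0.97 to 1.41, adjusted p = 0.0538 to 0.0852). COL3A1, the main fibril collagen of arteries beside type I, lay at -0.02 (adjusted p = 0.788).

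TNC, the adhesion-modulating tenascin C, ran from 6.41 to 9.41 (median 6.96) in brachial and from 5.50 to 6.57 (median 5.77) in internal mammary arrays, a difference of 1.72 (SE 0.45, adjusted p = 0.0156). MFAP2, a microfibril protein, ran from 7.96 to 9.86 (median 9.21) against 6.69 to 8.03 (median 7.42), a difference of 1.67 (SE 0.33, adjusted p = 0.00481) in 6 of 7 pigs. COMP, a collagen-binding thrombospondin, was higher by 1.36 (SE 0.34, adjusted p = 0.0135), and CILP, a matrix protein that binds TGF-beta, by 1.37 (SE 0.23, adjusted p = 0.00218). The ranges of all 4 overlapped between the arteries.

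In those last 4 pigs alone TNC (1.17, adjusted p = 0.193), MFAP2 (1.28, adjusted p = 0.136), COL6A2 (0.88, adjusted p = 0.302), COL6A3 (1.04, adjusted p = 0.326), COL5A3 (0.74, adjusted p = 0.0781) and COMP (0.85, adjusted p = 0.190) did not pass. CILP, COL8A1 and COL5A2 did. With the 28S/18S difference as a covariate TNC (1.36, adjusted p = 0.0968), COMP (1.00, adjusted p = 0.0875), COL6A2 (1.27, adjusted p = 0.0851) and COL6A3 (1.45, adjusted p = 0.0849) did not pass either. ITGA5, the fibronectin receptor subunit, ran from 10.93 to 11.55 (median 11.22) against 9.96 to 10.46 (median 10.36), a difference of 1.00 (SE 0.07, adjusted p = 4.08e-05) without overlap, while its other, dimmer probe set did not pass (0.06, adjusted p = 0.699). Matrix proteases and their inhibitors were higher in 8 of 14 genes and lower in 1 (64.3% called, median 0.25), among them the gelatinase MMP2 (0.46, adjusted p = 0.00298) and its activator MMP14 (0.42, adjusted p = 0.00240). MMP2 did not pass in the first 3 pigs alone (0.32, adjusted p = 0.128), nor MMP14 in the last 4 (0.35, adjusted p = 0.0630).

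Markers of the wall beneath the endothelium were set beside these genes. Of 10 fibroblast markers 4 were higher (DPT, CILP, APOD and COL6A3) and none lower (40.0% called, median 0.26), while DCN, LUM, COL1A2 and COL3A1 did not pass. The mean fibroblast difference ranged over the pigs from -0.03 to 1.16. Of 15 smooth muscle markers 1 was higher, 1 lower and 13 did not pass (13.3% called, median 0.07). Their mean difference ran from -1.49 in pig 14_3 to 1.45 in pig 15_4. The smooth muscle markers thus varied between pigs in both directions, and in such bulk samples fewer cells of a type and less RNA per cell cannot be told apart.

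ACTA2, the smooth muscle actin, ran from 13.35 to 14.14 (median 13.65) in brachial and from 13.24 to 14.12 (median 13.58) in internal mammary arrays, with 0.07 between the means (adjusted p = 0.800). DES, the muscle intermediate filament desmin, ran from 9.24 to 12.98 (median 10.47) against 8.14 to 9.92 (median 8.53) and was higher in 6 of 7 pigs (2.07, SE 0.54, adjusted p = 0.0154). DES did not pass with the 28S/18S difference as a covariate (1.54, adjusted p = 0.0986) or in the last 4 pigs alone (1.10, adjusted p = 0.232). The lower marker was MYLK, the myosin light chain kinase (-0.86, adjusted p = 0.0432), which kept its call only without pig 15_4 and lost it without any other pig (-0.96 to -0.61, adjusted p = 0.0503 to 0.103). MYL9, a myosin light chain, was at 1.28 in 5 of 7 pigs (adjusted p = 0.0624 with the pig as a block and 0.0314 without it).

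With the mean of the smooth muscle markers added as a covariate, 10540 probe sets were called, of which 9039 were among the 9101 and in the same direction. Each of the 106 genes named as higher or lower with its value remained called in that fit. DES and MYLK, which are among them, also enter the marker mean. Since that mean varied in both directions over the pigs, the covariate mainly takes up spread between pigs. Whether smooth muscle content accounts for the calls was not tested.

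Position-specifying genes differed in both directions. HOX genes record the position of a cell along the body axis or limb, and in a list with other limb and body factors 5 of 16 measured genes were higher, 3 were lower and 8 did not pass (median 0.03). HOXA9 ran from 7.54 to 9.29 (median 9.20) in brachial and from 9.89 to 11.93 (median 10.34) in internal mammary arrays, so that the arteries were apart and HOXA9 was 4.18-fold lower (-2.06, SE 0.32, adjusted p = 0.00137). HOXB7 ran from 10.06 to 10.46 (median 10.26) against 10.56 to 10.93 (median 10.65), also apart (-0.48, SE 0.09, adjusted p = 0.00396), and its other probe set was lower as well (-0.65). HOXD8 was lower by -0.31 (adjusted p = 0.0319), but not after centring or quantile normalization (-0.25 in both, adjusted p = 0.0705 and 0.0596) nor without pig 10_5, 11_3, 15_2 or 15_4 (-0.30 to -0.24, adjusted p = 0.0680 to 0.0833).

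MSX1, a homeobox gene of limb and skull patterning, ran from 7.67 to 7.98 (median 7.87) in brachial and from 7.15 to 7.63 (median 7.29) in internal mammary arrays, higher without overlap (0.52, SE 0.07, adjusted p = 8.64e-04). TBX2, a limb T-box factor, was higher by 0.29 without overlap (SE 0.06, adjusted p = 0.00569), and its 2 other probe sets did not pass (0.21 and 0.17). The other MSX1 probe set did not pass either (0.20, adjusted p = 0.0645). The other 3 rises were those of LHX9 (0.38), GATA4 (0.30) and HAND1 (0.21). After quantile normalization GATA4 (0.19, adjusted p = 0.0643) and HAND1 (0.12, adjusted p = 0.216) did not pass, nor did HAND1 without pig 10_1, 10_5, 11_3, 12_5 or 15_2 (0.17 to 0.22, adjusted p = 0.0572 to 0.0956). The 3 HOX genes that passed, HOXD8 with the exceptions given, were lower in brachial arrays, and the 5 that rose belong to other families. This split went with brightness in part. HOXD8, HOXA9 and HOXB7 (means over 14 arrays of 9.33, 9.73 and 10.49) were among the 8000 brightest probe sets, where 20.7% were lower and 14.0% higher. LHX9 (3.98), GATA4 (4.45) and HAND1 (4.97) were among the 8000 dimmest, where 26.6% were higher and 6.84% lower. MSX1 (7.57) and TBX2 (6.77) lay between. Whether family or brightness accounts for the split was not tested. Of the arterial and Notch identity genes 3 of 17 were higher and 3 lower (35.3% called, near the share of all genes, median 0.04). They include NRP2, a semaphorin and VEGF coreceptor (0.60, adjusted p = 2.58e-04), and RBPJ, the DNA-binding partner of Notch (-0.70, adjusted p = 0.00264), both without overlap.

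Growth factor genes differed in both directions. In the list of VEGF, angiopoietin, FGF and insulin-like growth factor genes 8 of 25 were higher and 6 lower (56.0% called, median 0.14). IGF2, the fetal-type growth factor, ran from 12.65 to 13.34 (median 13.02) in brachial and from 12.28 to 12.59 (median 12.30) in internal mammary arrays (0.68, SE 0.08, adjusted p = 3.57e-04). IGFBP6, which binds IGF2 by preference, ran from 10.43 to 11.66 (median 10.96) against 9.65 to 10.35 (median 9.88), a difference of 1.02 (SE 0.13, adjusted p = 5.79e-04). Neither overlapped; of the 12 other IGF2 probe sets 7 were higher, none was lower, and 5 did not pass, with -0.20 as the lowest value.

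IGF1R, a receptor of insulin-like growth factors, ran from 6.65 to 8.02 (median 7.31) against 7.82 to 9.20 (median 8.23) and was 2.28-fold lower in brachial arrays (-1.19, SE 0.11, adjusted p = 1.16e-04), but its other probe set did not pass (-0.11, adjusted p = 0.217). EPAS1, the oxygen-sensing factor HIF-2 alpha, ran from 9.08 to 9.35 (median 9.21) against 9.73 to 10.25 (median 10.12), lower without overlap (-0.86, SE 0.08, adjusted p = 8.58e-05). In the TGF-beta, BMP and activin list 8 of 24 were higher and 4 lower (median 0.18), with the ligand TGFB2 lower (-0.75, adjusted p = 0.00179) and the activin subunit INHBB higher (0.45, adjusted p = 0.00111). Of 3 other TGFB2 probe sets 1 was lower (-0.45, adjusted p = 0.0192), and the remaining values were -0.20 (adjusted p = 0.234) and -0.01 (adjusted p = 0.951). The other INHBB probe set did not pass (0.16, adjusted p = 0.0678). CCND2, a cyclin of the G1 phase, ran from 10.49 to 11.81 (median 11.22) against 12.21 to 12.60 (median 12.31) and was lower without overlap (-1.19, SE 0.15, adjusted p = 4.86e-04).

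Genes of cholesterol synthesis and uptake were higher in brachial arrays in 7 of 9 measured genes, none was lower and all 9 had differences above 0 (77.8% called, median 0.37). SQLE, squalene epoxidase, a slow step of the pathway, ran from 8.94 to 10.45 (median 9.76) in brachial and from 7.41 to 8.87 (median 8.31) in internal mammary arrays. Its ranges met without overlapping, and SQLE was 2.51-fold higher (1.33, SE 0.09, adjusted p = 3.19e-05). FDPS, which makes the isoprenoid precursor of cholesterol, was higher by 1.02 (SE 0.10, adjusted p = 1.45e-04), FDFT1, the squalene synthase, by 0.45 (SE 0.06, adjusted p = 6.04e-04), and SREBF2, the factor that switches on the pathway, by 0.72 (SE 0.07, adjusted p = 1.08e-04).

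SREBF2 had 3 other probe sets, of which 2 were higher and 1 did not pass. SCD, a desaturase of fatty acids, was higher by 0.82 (SE 0.14, adjusted p = 0.00227), while of 24 genes of fatty acid handling 4 were higher and 2 lower (25.0% called, median 0.09). In sedentary pigs 1 of the 9 cholesterol genes was called, SREBF2 (0.43, adjusted p = 0.0265), where 23.6% of all genes were called. SQLE differed by 0.82 in sedentary pigs, in 4 of 7, and did not pass (adjusted p = 0.0818). FDPS differed by 0.34 there (adjusted p = 0.149), and the test of exercised against sedentary pigs did not pass (adjusted p = 1.00).

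Antioxidant genes moved in both directions, with 8 of 25 higher and 6 lower (56.0% called, median 0.03). SOD3, the superoxide dismutase secreted into the vessel wall, ran from 10.31 to 10.78 (median 10.68) in brachial and from 8.84 to 9.72 (median 9.30) in internal mammary arrays, 2.58-fold higher without overlap (1.37, SE 0.14, adjusted p = 1.58e-04). CDO1, which is not in the antioxidant list, starts the breakdown of cysteine towards taurine. It ran from 10.76 to 11.70 (median 11.31) against 8.89 to 10.49 (median 9.69), also without overlap (1.55, SE 0.16, adjusted p = 2.04e-04). Of the heat shock and unfolded protein genes 4 of 30 were higher and 9 lower (43.3% called, median -0.06). Their extremes were HSPB6, a small heat shock protein of smooth muscle (1.22, adjusted p = 0.00129; 0.58 and adjusted p = 0.0753 in its other probe set), and HSPA2, an HSP70 family member (-0.93, adjusted p = 9.11e-04).

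CFD, complement factor D, which is also an adipocyte product, ran from 11.63 to 12.24 (median 11.83) in brachial and from 12.61 to 13.04 (median 12.85) in internal mammary arrays, lower without overlap (-0.93, SE 0.06, adjusted p = 3.48e-05). TFPI2, a protease inhibitor of the matrix, ran from 9.88 to 10.61 (median 10.33) against 10.83 to 11.40 (median 11.04), again apart (-0.78, SE 0.09, adjusted p = 2.71e-04). SLC29A1, the adenosine transporter ENT1, ran from 6.77 to 7.36 (median 7.13) against 7.67 to 8.44 (median 8.05), with a difference of -0.97 (SE 0.07, adjusted p = 4.12e-05). All 3 were lower in 7 of 7 pigs, and each had the lowest difference of the list given here for it. Of 7 adipocyte markers 1 was higher and 1, CFD, lower (28.6% called, median 0.20). Of 18 coagulation and fibrinolysis genes 3 were higher and 3 lower (33.3% called, median -0.01). Of 15 solute carriers 5 were higher and 2 lower (46.7% called, median -0.06).

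Housekeeping families had few calls between the arteries. The arrays of the arteries did not overlap for 7 of 58 ribosomal protein genes and 2 of 45 genes of oxidative phosphorylation, against 9.25% of all genes. Of 58 ribosomal protein genes 3 were higher and 2 lower (8.62% called, median -0.01), and of 45 genes of oxidative phosphorylation 4 were higher and 1 lower (11.1% called, median 0.01), against 35.8% of all genes. Leukocyte adhesion molecules of the endothelium were called in 1 of 11 genes (9.09%). Of these ICAM1 ran from 10.21 to 12.23 (median 11.27) in brachial and from 11.15 to 12.41 (median 11.55) in internal mammary arrays (-0.34, adjusted p = 0.131). VCAM1 ran from 12.38 to 13.32 (median 12.91) against 12.20 to 13.26 (median 12.89), with 0.03 between the means (adjusted p = 0.886).

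**Figure D3:**
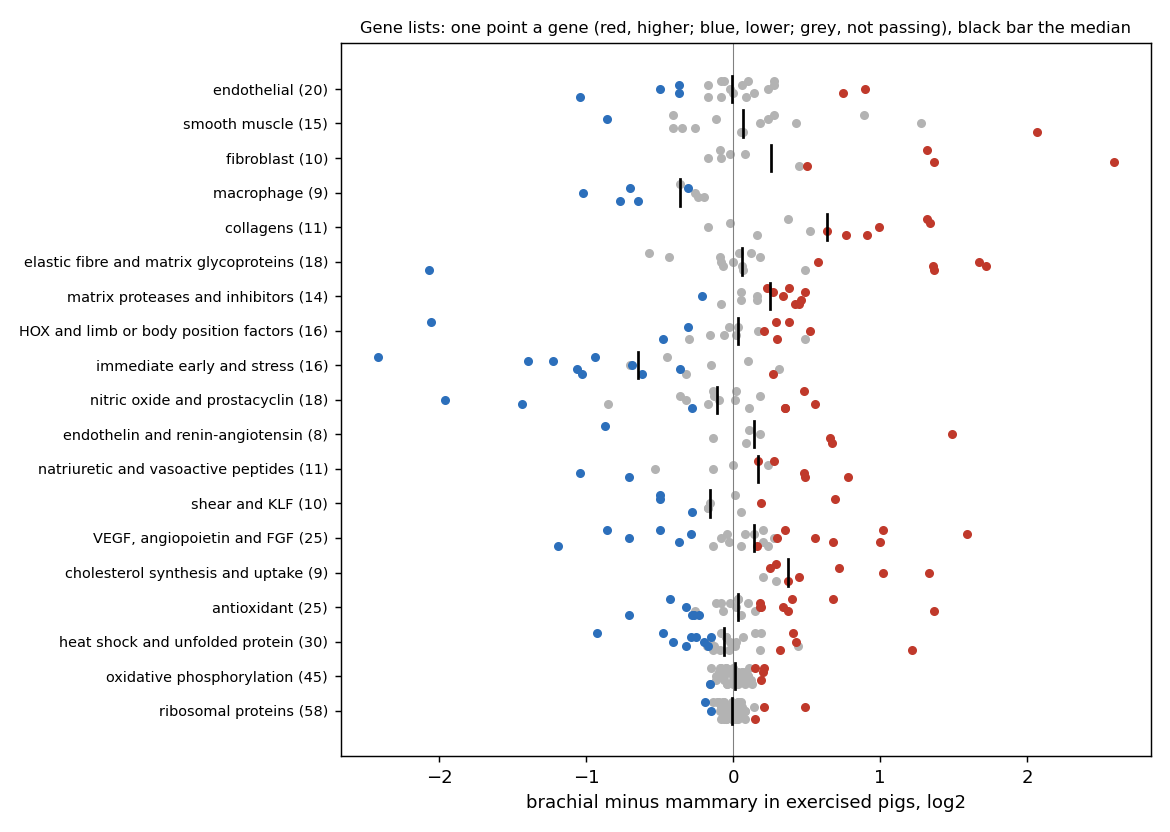
Brachial minus internal mammary difference (log2, horizontal axis) in 7 exercised pigs for the measured genes of 19 lists, with the number measured in brackets. Each point is a gene (red, higher; blue, lower; grey, not passing) and black bars are medians, which lay at -0.65 for immediate early, -0.36 for macrophage and 0.64 for collagen genes and near 0 for ribosomal proteins.

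Several macrophage and B cell markers were lower in the brachial arrays of exercised pigs, while none of the 7 genes of the T or natural killer cell list was. Of 9 macrophage markers 5 were lower and none higher, and all 9 had differences below 0 (55.6% called, median -0.36). C1QC, a chain of the complement protein C1q, ran from 9.12 to 9.91 (median 9.57) in brachial and from 9.88 to 10.98 (median 10.60) in internal mammary arrays, just overlapping (-1.02, SE 0.14, adjusted p = 7.06e-04). TYROBP, a signalling adaptor of myeloid cells, ran from 8.24 to 8.95 (median 8.73) against 9.13 to 9.57 (median 9.39), without overlap (-0.70, SE 0.10, adjusted p = 9.29e-04). FCER1G, the common chain of Fc receptors (-0.77, SE 0.14, adjusted p = 0.00273), and AIF1, a calcium-binding protein of macrophages (-0.65, SE 0.13, adjusted p = 0.00476), were lower in 7 of 7 pigs. The fifth was CD14, a receptor of bacterial lipopolysaccharide (-0.31, adjusted p = 0.0372), which did not pass without pig 10_1, 12_5, 14_3, 15_2 or 15_4 (-0.33 to -0.21, adjusted p = 0.0512 to 0.0848) and had a second probe set that was higher (0.33, adjusted p = 0.00194). CD163, C1QA, MRC1 and LAPTM5 did not pass.

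FCGR3A, a receptor for immunoglobulin G on macrophages and natural killer cells, ran from 9.18 to 10.24 (median 9.72) in brachial and from 10.38 to 11.44 (median 11.17) in internal mammary arrays. FCGR2B, the inhibitory Fc receptor of B cells and myeloid cells, ran from 5.17 to 6.23 (median 5.49) against 6.47 to 7.17 (median 7.03). Both were apart, with differences of -1.37 (SE 0.16, adjusted p = 4.33e-04) and -1.24 (SE 0.13, adjusted p = 2.51e-04), though the other FCGR3A probe set lay at 0.04 (adjusted p = 0.833). CD53, a tetraspanin of leukocytes, was lower by -1.20 (SE 0.18, adjusted p = 0.00110) with no overlap.

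Both measured B cell genes were lower, CD79B, a signalling chain of the antigen receptor (-1.23, SE 0.12, adjusted p = 1.53e-04), and BLNK, its linker (-1.17, SE 0.19, adjusted p = 0.00163). Sedentary pigs also had lower brachial values for CD79B (-0.59, limma adjusted p = 0.0179) and BLNK (-0.35, adjusted p = 0.0335). VNN2, a pantetheinase of neutrophils, was lower by -1.42 (SE 0.10, adjusted p = 3.56e-05). Of 7 T or natural killer cell markers 1 was higher and none lower (14.3% called, median 0.03). CD74, the invariant chain of class II antigen presentation, ran from 13.45 to 13.78 (median 13.67) against 12.92 to 13.11 (median 13.04) and was higher without overlap (0.63, SE 0.06, adjusted p = 9.84e-05). It had the highest difference in the list of swine leukocyte antigens and antigen presentation. Of the 17 genes of that list 3 were higher and 4 lower (41.2% called, median -0.07).

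In the cytokine and chemokine list 5 of 23 genes were higher and 7 lower (52.2% called, median -0.05). IL10, an anti-inflammatory cytokine, ran from 5.07 to 5.47 (median 5.26) in brachial and from 5.70 to 6.31 (median 5.91) in internal mammary arrays, dim but without overlap (-0.71, SE 0.07, adjusted p = 1.31e-04). CXCL2, which attracts neutrophils, was lower by -0.83 (SE 0.16, adjusted p = 0.00365), and CSF3, a growth factor of neutrophils, was higher by 0.49 (SE 0.08, adjusted p = 0.00205).

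Some further calls rested on part of the pigs or on the labelled RNA ratio. In the last 4 pigs alone HOXB7 (-0.40), TBX2 (0.28), LHX9 (0.38), HMOX1 (-0.30), HSPB6 (0.93), CXCL2 (-0.66), APOD (0.42), NNAT (0.25), ERG (-0.18), TEK (-0.23), HOXD8, GATA4, HAND1, MYLK, AGTR1 and LOC100153598 did not pass. In the first 3 pigs alone AIF1 (-0.50), SCD (0.85), DDAH1 (0.61), INHBB (0.34), LHX9, TBX2, HMOX1, NNAT, HOXD8, GATA4, HAND1, MYLK and CD14 did not pass. With the 28S/18S difference as a covariate ERG (-0.27), TEK (-0.35), MYLK (-0.99), LOC100153598 (1.20), HOXD8, GATA4 and HAND1 did not pass. Each kept its direction in these fits.

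The same comparison in 7 sedentary pigs, which share no animal with the 7 exercised ones, called 6333 probe sets (26.4%) and 1599 genes (23.6%). Of the probe sets called in exercised pigs 56.5% were also called in sedentary pigs, and these 5145 made up 81.2% of the sedentary calls, all in the same direction. Of the 9101 exercised calls 98.2% had the same sign in sedentary pigs, against 84.9% of all probe sets. Across the 23999 probe sets the differences correlated with a Pearson r of 0.882, a description only, since the probe sets share arrays and the control probe sets shifted between arteries in both groups of pigs.

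The test of the difference between exercised and sedentary pigs called 0 of 23999 probe sets in limma, with 1057 (4.40%) at an unadjusted p under 0.05. The smallest p among named genes was that of FCGR2B (adjusted p = 0.558), whose artery difference was -1.24 in exercised and -0.27 in sedentary pigs. It was followed by NNAT, a small membrane protein of nerve and endocrine cells, with 0.25 and -0.15, and PYROXD1, an oxidoreductase, with 0.08 and -0.28, all with an adjusted p of 0.558. NNAT passed in exercised pigs (adjusted p = 0.00451) and PYROXD1 did not (adjusted p = 0.313).

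FCGR3A had artery differences of -1.37 and -0.13 (adjusted p = 0.558), and CD53 of -1.20 and -0.12 (adjusted p = 0.558). FCER1G (-0.77 and 0.12) and C1QC (-1.02 and -0.32) had adjusted p of 0.637 and 0.903. Over the macrophage list the mean difference was -0.50 in exercised pigs, below 0 in 7 of 7, and -0.07 in sedentary pigs, below 0 in 4 of 7. A difference between the groups of pigs was not called for any of these genes, and 0 calls do not show that the artery differences were equal.

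By group, FCGR3A had medians of 9.72 in brachial and 11.17 in internal mammary arrays of exercised pigs, and of 10.82 and 10.96 in those of sedentary pigs. The brachial arrays of exercised pigs were thus the lowest group for this gene. For CD79B the lowest group was instead the brachial arrays of sedentary pigs (median 5.79, against 6.44 in exercised pigs). VWF went from 6.83 to 12.06 (median 8.35) in internal mammary arrays of sedentary pigs, a wider spread than in any other group, and its exercised and sedentary differences of 0.28 and -2.10 did not pass the test between the groups of pigs. The mean macrophage marker level had medians of 8.43 and 8.93 in brachial and internal mammary arrays of exercised pigs and of 8.85 and 8.93 in those of sedentary pigs.

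**Figure D4:**
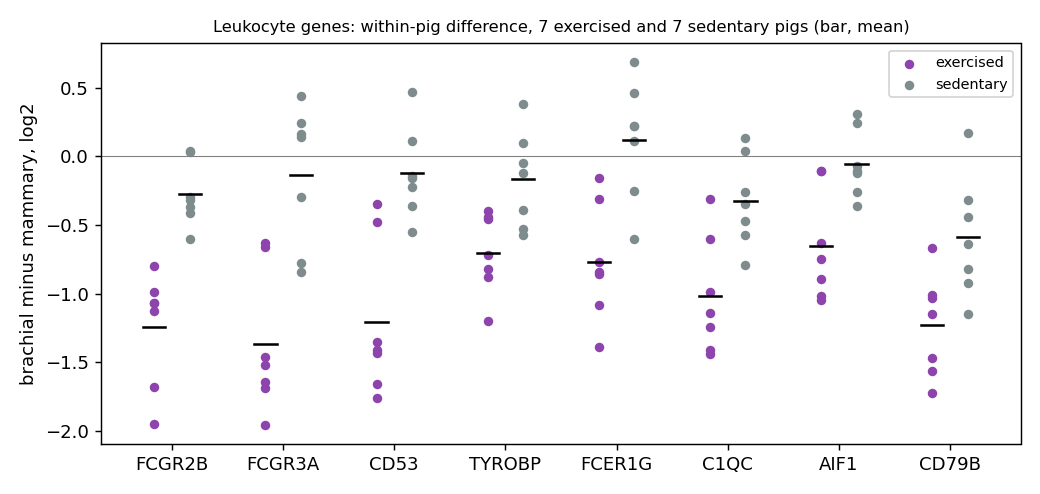
Within-pig brachial minus internal mammary difference (log2, vertical axis) of 8 leukocyte genes in 7 exercised (purple) and 7 sedentary (grey) pigs, with means as black bars. All exercised points lie below 0 for every gene, while sedentary points lie on both sides; the difference between the groups was not called for any of them.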

How the data were processed

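The deposited table holds log2 probe set intensities computed by the authors; the submitters' processing notes name affy without a version, and the summary method and normalization are not given in the sources used here. Array medians ran from 7.14 to 7.25 and array correlations from 0.974 to 0.995, so no array was a copy of another. Groups came from the titles; for exercised internal mammary samples the source field says sedentary, while title and treatment say exercised. Probe set names came from the platform annotation (10069 with 1 symbol, 198 with several, 13732 with none), and 9961 Entrez identifiers were found in the reference.

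Within-pig log2 differences were fitted in limma 3.58.1 (R 4.3.3) with moderated tests and Benjamini-Hochberg adjustment over 23999 probe sets; the 124 array controls did not enter. The exercised and sedentary differences were compared as 2 groups of 7. Whether arteries of a pig deviated together was checked: the pairing is that of the labels, and the own pair correlated with a median of 0.279, against -0.050 for different pigs. The own pair was the highest for 4 of the 7 pigs, and the lowest own pair was at -0.124. Single control values were tested by exact sign flips. On simulated differences for 23999 probe sets the paired fit recovered 92.0% of changes of size 1 and 22.0% of size 0.3, and the exercised minus sedentary fit 80.0% and 2.00%. Only a small part of the simulated probe sets was changed, while 37.9% were called between the arteries. The recovery of the paired fit in the data may therefore differ. Each pig is 1 biological sample, and the number of arrays limits the precision.

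Named genes were the 12 greatest differences each way, up to 6 members of each list by smallest p, and leaders of the exercised minus sedentary test. ACTA2, CD53, CDH5, COL3A1, EDN1, PECAM1, VCAM1, VWF and members named only with a count were chosen after seeing values. The members and gene lists (13 of cell type markers, 36 of pathways) were chosen with earlier results of these data known. Figures used matplotlib 3.10.9 under Python 3.11.15. Alternatives covered blocks, filters, scaling, weights, covariates, dates and left-out pigs.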

Additional observations from a re-analysis of the deposited data

Results flagged for a closer look

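In 272 groups of 7 arrays, 21 held a sample far from the others; the critical value used is one that chance passes in about 1 in 20 independent groups, and these groups share arrays. In the internal mammary arrays of exercised pigs, pig 10_1 was far above the rest for BTG2 (13.06, next 11.60), EGR1 (12.24, next 11.27), CD14 (7.18, next 6.51) and PTGS2 (10.33, next 8.51) and far below for CILP (7.00, next 8.94). Pig 14_3 was far above for COMP (6.83, next 5.84) and AGTR1 (7.91, next 6.26), pig 15_2 for PDE3A (10.78, next 10.45) and CALCRL (6.97, next 6.64), and pig 12_5 for COL5A3 (6.80, next 6.00) and for the array interquartile range (3.98, next 3.89). Pig 11_3 was low for C1QC (9.88, next 10.51), pig 15_4 for FDFT1 (9.53, next 10.03), and the labelled RNA amount of pig 15_4 was 341 against a next value of 171.

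In brachial arrays, pig 12_5 was far above for LOC100154873 (8.12, next 6.67), pig 10_1 for KLF2 (8.41, next 7.62) and pig 14_3 for INHBB (6.07, next 5.88). Pig 11_3 was far below for ARHGAP29 (6.91, next 7.59), pig 15_4 for EGFL7 (10.97, next 11.40) and FDFT1 (9.89, next 10.45), and pig 14_3 for SOD3 (10.31, next 10.60). FDFT1 was thus low in both arteries of pig 15_4. Of these genes AGTR1 and CD14 are those whose calls were lost when single pigs were left out. No gene named here moved one way in every exercised pig and the other way in every sedentary pig.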

How the results depend on the processing

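The count of 9101 probe sets called between the arteries fell to 5718 with the 28S/18S difference as a covariate, 5179 in the first 3 pigs alone, 3846 in the last 4 alone, and 2956 in the 8000 brightest probe sets, where fewer were tested; it was 0 with the actin 3' minus 5' difference and 6 with the hybridization controls as a covariate, and no pig had a difference of 0 in either. Leaving out a pig gave 7247 to 8862. Without the replicate block it was 7465 and with a random replicate block 9715, and the pairing moved few calls of named genes: 102 and 105 of 106 remained called, and NR4A2, DDAH1, CD14 and LOC100153598 were lost without it. Of the 106, 91 remained called with the 28S/18S covariate, 90 in the first 3 pigs and 79 in the last 4. Sedentary counts of 6333 were 5286 without the block and 4501 to 6503 with a pig left out. The difference between exercised and sedentary pigs kept 0 calls in every alternative run except without pig 14_3, when leave-one-out counts ran from 0 to 1.

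With the hybridization controls as a covariate these differences changed sign, none of them called: DES -1.60, TNC -0.24, LOC100153598 -1.99, ANKRD50 0.06, CSF3 -0.04, COL6A2 -0.64, COL6A3 -0.29, COL5A3 -0.14, COMP -0.31, THBD 0.45, PTGS2 1.13, AGTR1 -0.67, KLF2 -0.35, KLF4 0.00, TGFB2 0.19, ERG 0.34, TEK 0.27, GATA4 -0.03 and RBPJ 0.16. With the actin controls they were CILP -0.16, THBD 0.10, PTGS2 1.21, ADM 0.72, KLF2 -0.23, HSPA2 0.23, GATA4 -0.17, CD14 0.53 and RBPJ 0.20. In no other alternative did a called gene named here change sign. Taking each gene's probe set with the smallest p gave 3178 genes instead of 2420, and leaving out genes called in both directions (160 of 655 with several called probe sets, 24.4%) gave 2309. Signal over background could not be measured without scanner files, so dim genes may be at background.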

Other observations

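The complement, interferon, glycolysis and skeletal muscle lists were called at shares near or below the 35.8% of all genes, so their counts do not set them apart. Of 16 complement genes 1 was higher and 5 were lower (37.5% called, median -0.19), the latter with CD55, which protects cells from complement attack, at -1.15 (adjusted p = 0.00799). Of 4 other CD55 probe sets 1 was lower (-0.49, adjusted p = 0.00315), 1 was higher (0.23, adjusted p = 0.0417) and 2 did not pass, and CD55 itself did not pass in the last 4 pigs alone (-1.23, adjusted p = 0.0664). Of 22 interferon response genes 3 were higher and 3 lower (27.3% called, median -0.01), with the kinase EIF2AK2, which senses double-stranded RNA, lower in 7 of 7 pigs (-0.79, adjusted p = 8.20e-04). Of 17 glycolytic genes 6 were higher and none lower (35.3% called, median 0.10), with LDHA, the muscle-type lactate dehydrogenase, at 0.52 without overlap (adjusted p = 5.31e-04).

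Of 17 skeletal muscle markers, most of them dim, 6 were higher and none lower (35.3% called, median 0.13), and of 5 pericyte markers none was called. Of 10 genes of retinoic acid handling, RARRES1 among them, 5 were higher and none lower (median 0.25).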
